A study of Mus musculus with 24 samples.

Results

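The 200 most abundant long intergenic non-coding RNAs (lincRNAs) of the mouse autosomes were followed across spermatocytes and round spermatids with and without a deletion at the Ago4-Ago1-Ago3 locus. They were selected on wild-type levels alone, as the autosomal genes that GENCODE release M21 annotates as lincRNA with the highest mean CPM (the count of a gene scaled to a common library total) over 7 wild-type libraries, 4 of spermatocytes and 3 of round spermatids. They make up 200 of 5209 autosomal lincRNAs in the table, 3633 of which had a count in those 7 libraries, and 200 of 55536 genes in all. Because the rule used the wild-type libraries, wild-type levels and wild-type differences are given as a description. The tests that compare no library of the rule are those among Ago413+/- and Ago413-/- libraries. The wild-type libraries still entered the scaling and the estimate of spread in those fits. Comparisons with wild-type use the libraries of the rule directly and are given with that limit.

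Germ cells were enriched from testes of C57BL/6J males aged 10 to 15 weeks on a BSA gradient by gravity, with testes of 2 to 5 mice pooled for a preparation and fractions above 70% pure. Genotypes were Ago413+/+ (wild-type), Ago413+/- and Ago413-/-, with a constitutive deletion on chromosome 4 that takes out all of Ago1 and parts of the neighbouring Ago3 and Ago4. The deletion was made in ES cells of 129 origin, and the allele was crossed into C57BL/6J. The spermatocyte (SP) fraction, of pachytene and diplotene cells, gave 4 wild-type, 3 Ago413+/- and 3 Ago413-/- libraries, and the round spermatid (RS) fraction gave 3, 4 and 4. A further 3 libraries that the labels call outliers were kept out of the main comparisons. Total counts of the 21 libraries ran from 12825105 to 29749058, so that 3 counts equalled at most 0.234 CPM. Ago1, which encodes one of the deleted Argonautes, had 0 counts in each of the 7 Ago413-/- libraries and 3.55 ± 0.679 (SD, n = 4) CPM in wild-type spermatocytes.

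LincRNAs are transcribed by RNA polymerase II, are usually capped, spliced and polyadenylated, and carry no long open reading frame. Meiotic and post-meiotic male germ cells transcribe more of the genome than most tissues do, and many lincRNAs are known from the testis alone. Most of the genes described here have only a clone or model name and no known role. Argonautes bind small RNAs and guide silencing of matching transcripts, and some lincRNAs hold microRNA (miRNA) genes within their introns or exons.

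Wild-type levels fell steeply with rank. The mean over the 7 wild-type libraries was 1027 CPM for the first gene, 23.4 CPM at the median and 13.8 CPM for the last, and 14 of the 200 lay at or above 100 CPM. The first 10 genes held 43.9% of the CPM of the 200, and the 200 held 68.9% of that of all autosomal lincRNAs. The threshold fell within a continuous run: the last genes inside it were 4930429C20Rik at 13.91 CPM, 1700092E19Rik at 13.85 CPM and 4930479D17Rik at 13.83 CPM, and the first outside it were 4933411E08Rik at 13.82 CPM, D930016D06Rik at 13.79 CPM and 4930524O08Rik at 13.75 CPM. None of the 200 was at 0 in any of the 21 libraries. All 200 passed the filter on low counts.

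**Figure D1:**
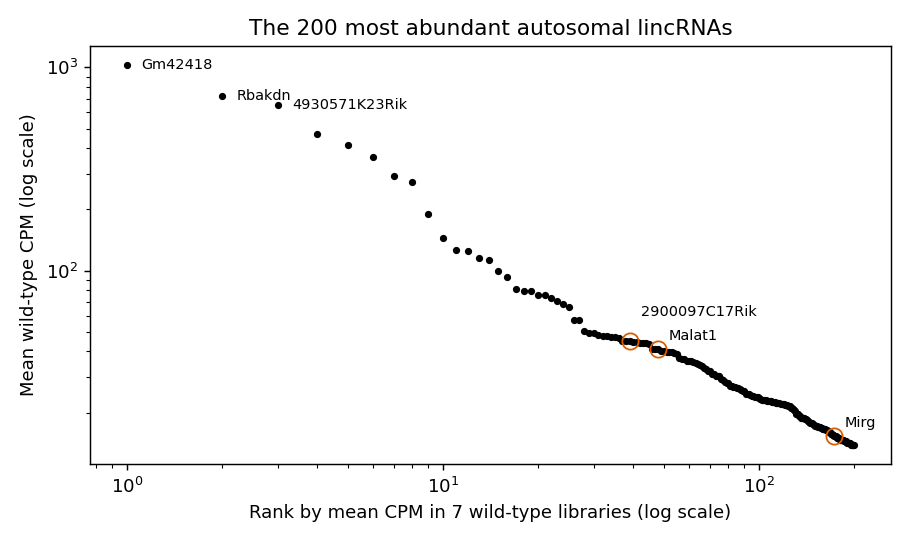
Mean wild-type CPM (vertical axis, log scale) against rank (horizontal axis, log scale), with a point for each of the 200 lincRNAs. The curve runs from 1027 CPM for Gm42418 to 13.8 CPM at rank 200, and Malat1, 2900097C17Rik and Mirg (circled) lie well below the first 10.

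Together the 200 took about the same share of counts in every group. Their share was 1.06% ± 0.0346 (SD, n = 4) in wild-type, 1.12% ± 0.174 (n = 3) in Ago413+/- and 1.03% ± 0.0702 (n = 3) in Ago413-/- spermatocytes. In round spermatids it was 1.01% ± 0.0591 (n = 3), 1.01% ± 0.122 (n = 4) and 1.01% ± 0.0531 (n = 4). These group means differed by less than the spread between the Ago413+/- spermatocyte libraries, where replicate 3 reached 1.32%. Without Gm42418 the spermatocyte means were 0.966% in wild-type, 0.963% in Ago413+/- and 0.926% in Ago413-/- cells. The round spermatid means, 0.892%, 0.872% and 0.903%, were all lower. Single libraries overlapped between fractions, with 0.912% the lowest in Ago413-/- spermatocytes and 0.976% the highest in Ago413-/- round spermatids. This difference was not tested.

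As annotated, the 200 had a median exon length of 1408.5 bases, from 243 to 17803, with a median of 3 exon blocks. The other 3433 detected autosomal lincRNAs had a median of 1066 bases and also 3 blocks. A single exon was annotated for 20 of the 200. A protein-coding gene started within 1000 bases on the other strand for 23 (11.5%, against 7.17% of the other detected lincRNAs). At least 1 lay on each autosome, most on chromosomes 5 and 13 with 21 each. Of the 200, 173 were matched to RefSeq, which lists 161 as lncRNA, 5 as pseudogenes and 7 as protein-coding, among them the third most abundant, 4930571K23Rik. The label lincRNA is therefore not shared by both annotations for 12 genes. Exons of 32 overlapped exons of a gene on the other strand. The libraries were strand-specific, but the strand setting of the counting is not stated, so reads of such pairs may not be told apart.

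The most abundant member, Gm42418, lies at chr17:39846958-39848788 (mm10, as all coordinates here) and corresponds to Rn18s-rs5 in RefSeq, a pseudogene entry for 18S ribosomal RNA. Its level varied widely within groups. In spermatocytes it was 888, 1024, 738 and 925 CPM in wild-type, 910.2, 1833 and 1958 CPM in Ago413+/- and 1651, 790.0 and 760.3 CPM in Ago413-/- libraries. The round spermatid libraries gave 1687, 906 and 1022 CPM in wild-type, 664, 2722, 743 and 1408 CPM in Ago413+/- and 949.9, 1286, 1005 and 938 CPM in Ago413-/- libraries. Groups overlapped throughout, and Ago413+/- round spermatid replicate 2 was the highest of all. Its neighbour Gm26917 starts on the same strand within the same ribosomal RNA-related stretch at chr17:39843013-39846341 and was more uneven still, with 32.8, 456, 20.5 and 10.8 CPM in Ago413+/- and 6.24, 23.6, 26.5 and 24.3 CPM in Ago413-/- round spermatids. The highest Gm26917 value came from that same replicate 2.

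Next in rank was Rbakdn. It lies 15024 bases from the start of the zinc finger gene Rbak and had 844, 894, 754 and 800.1 CPM in wild-type, 662, 618 and 1326 CPM in Ago413+/- and 635, 693 and 641 CPM in Ago413-/- libraries of spermatocytes. In round spermatids it had 586, 550.5 and 623 CPM in wild-type, 452, 576, 545 and 447 CPM in Ago413+/- and 536, 493, 466 and 502 CPM in Ago413-/- libraries. Ago413+/- spermatocyte replicate 3 stood above the other 20 libraries, and the round spermatid values, at 623 CPM or less, met only the lowest of the spermatocyte values. After TMM scaling, which corrects library totals for a shift of the bulk of genes, Rbakdn was not called between fractions in Ago413-/- cells, with a log2 fold change of -0.13 ± 0.21 (SE, adjusted p = 0.717). The next members were 1700008K24Rik, Gm2762, 1700001L05Rik, 4930449C09Rik, 1700029M20Rik, 1700018B24Rik and AY702103, whose wild-type means ran from 470.0 CPM down to 144 CPM. Per kilobase of exon, Rbakdn (1134.7 CPM per kilobase) stood above Gm42418 (561 CPM per kilobase) and Gm2762 (75.7 CPM per kilobase). Choosing 200 genes by CPM per kilobase kept 131 (65.5%) of these 200.

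Sequence could be shown for a few members. The promoters below, from RefSeq (GRCm38.p6), span 250 bases before to 50 bases after the annotated start, 5′ to 3′ on the strand of the gene. They belong to the members with the largest rise in round spermatids (1700034G24Rik at chr5:112589947-112590246, minus strand, and 1700009J07Rik at chr10:77893170-77893469, plus strand), to the most abundant riser (4930571K23Rik, chr7:125368611-125368910, plus strand) and to the most abundant member that shares a start region with a coding gene, Msi2, on the other strand (C030037D09Rik, chr11:88718393-88718692, plus strand). Capitals mark a match to a motif described in the next paragraph, and only the last promoter holds one.
1700034G24Rik: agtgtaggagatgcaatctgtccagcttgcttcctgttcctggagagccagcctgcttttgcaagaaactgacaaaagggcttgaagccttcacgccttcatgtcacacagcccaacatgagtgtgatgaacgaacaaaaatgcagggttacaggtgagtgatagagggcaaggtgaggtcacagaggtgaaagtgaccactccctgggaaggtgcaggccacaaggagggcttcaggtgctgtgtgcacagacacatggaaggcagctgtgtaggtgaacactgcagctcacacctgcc
1700009J07Rik: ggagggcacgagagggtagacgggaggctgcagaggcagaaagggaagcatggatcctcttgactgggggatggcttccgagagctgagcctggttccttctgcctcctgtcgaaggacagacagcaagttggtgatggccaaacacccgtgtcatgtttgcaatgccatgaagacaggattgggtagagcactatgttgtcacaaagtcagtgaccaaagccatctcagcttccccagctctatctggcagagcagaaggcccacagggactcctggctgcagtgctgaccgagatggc
4930571K23Rik: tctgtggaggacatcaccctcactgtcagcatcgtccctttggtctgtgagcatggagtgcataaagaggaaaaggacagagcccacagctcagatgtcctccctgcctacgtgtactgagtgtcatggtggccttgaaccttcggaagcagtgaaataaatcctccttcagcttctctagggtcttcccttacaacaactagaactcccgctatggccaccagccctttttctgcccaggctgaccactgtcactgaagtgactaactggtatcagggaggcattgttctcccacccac
C030037D09Rik: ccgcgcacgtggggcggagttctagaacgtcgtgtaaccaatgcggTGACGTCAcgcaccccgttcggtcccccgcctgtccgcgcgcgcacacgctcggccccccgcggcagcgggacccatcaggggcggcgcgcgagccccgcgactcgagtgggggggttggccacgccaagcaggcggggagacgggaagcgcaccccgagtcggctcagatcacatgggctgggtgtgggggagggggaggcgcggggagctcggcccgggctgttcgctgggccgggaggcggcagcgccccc

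Letters that germ cell regulators are known to bind were searched on both strands of 116 member promoters whose RefSeq start lay within 100 bases of the GENCODE start. CAGTTG, the core bound by MYB factors such as the meiotic regulator MYBL1, was in 26 (22.4%), against 13.6% of the promoters of 27025 genes. The full cyclic AMP response element TGACGTCA, bound by the spermatid regulator CREM, was in 7 (6.03%, against 1.88%). Its first letters, TGACG, which every full element also holds, were in 30 (25.9%, against 21%). GTTGCC, letters bound by RFX factors, was in 21 (18.1%, against 12.7%). Among the 21 searched promoters of members higher in Ago413-/- round spermatids, as tested below, CAGTTG was in 1 (4.76%), and it was in 25 of the 88 searched promoters of members not called (28.4%) and in 0 of the 7 of members higher in Ago413-/- spermatocytes. The 300 bases of C030037D09Rik held 42 CG dinucleotides and those of 1700034G24Rik held 2. The medians were 2 over the 21 promoters of members higher in Ago413-/- round spermatids and 14 over the 7 of members higher in Ago413-/- spermatocytes. These are counts of letters and were not tested.

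The miRNA hosts among the 200 carry the sequences that Argonautes would bind. The libraries were made from polyadenylated RNA, so the values below are for the host transcript and not for the mature miRNA. RefSeq mature sequences were matched inside 4 members, 36 in all with 35 different seeds (bases 2 to 8, in capitals). Mir670hg holds miR-129-2 and miR-670, Gm21269 holds miR-7234, Gm49794 holds miR-7217 and miR-7218, and Mirg, from the imprinted Dlk1-Dio3 region, holds 26 mature sequences of which the pair sharing a seed and 2 others are shown.
miR-129-5p: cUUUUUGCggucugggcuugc
miR-129-2-3p: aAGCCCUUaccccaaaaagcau
miR-670-5p: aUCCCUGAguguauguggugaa
miR-670-3p: uUUCCUCAuauccauucaggagugu
miR-7234-5p: uUGUUUUCuccaaagacguuucu
miR-7234-3p: aAACGUCUuucuaggguagaagg
miR-7217-5p: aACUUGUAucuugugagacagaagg
miR-7218-5p: uGCAGGGUuuaguguagaggg
miR-453: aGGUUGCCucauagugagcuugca
miR-496a-5p: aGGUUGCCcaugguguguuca
miR-134-5p: uGUGACUGguugaccagagggg
miR-410-3p: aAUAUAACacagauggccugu

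The first comparison asked which members differ between round spermatids and spermatocytes of one genotype. In Ago413-/- cells, 50 of 200 members were called (adjusted p under 0.05, log2 fold change past 0.5 in either direction), 28 higher in round spermatids and 22 higher in spermatocytes. Over all 20404 genes tested, 17.1% were called, 11.7% higher in round spermatids and 5.42% higher in spermatocytes. In Ago413+/- cells, 26 members were called, 18 higher in round spermatids and 8 higher in spermatocytes, against 8.89% of all genes, 7.07% and 1.82% by direction. Median log2 fold changes of the 200 were 0.01 in Ago413-/- and -0.13 in Ago413+/- cells, beside 0.00 and -0.06 over all genes. The next 200 autosomal lincRNAs by rank had 49 and 25 calls. In the wild-type libraries that chose the members, 80 of 200 passed the same thresholds, 40 in each direction, beside 24.2% of all genes (12.7% higher in round spermatids, 11.4% higher in spermatocytes), which is a description only.

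How these calls split by direction depended on scaling. With library totals alone, without TMM factors, the median over all genes moved to -0.26 in Ago413-/- and -0.28 in Ago413+/- cells, and the calls became 72 (21 higher in round spermatids, 51 lower) and 49 (14 and 35), with 23.9% and 13.7% of all genes called. The excess of calls higher in round spermatids was therefore relative to the TMM reference. Beside the cell fractions, the summed level of 5 elongating spermatid markers was 22400 to 37800 CPM in Ago413-/- round spermatid libraries and 3860 to 13500 CPM in Ago413-/- spermatocyte libraries, with all 5 called higher in round spermatids. Of 7 round spermatid markers none was called in either genotype, and of 8 spermatocyte markers 2 were called higher in spermatocytes in Ago413-/- cells. Macrophage markers were called higher in round spermatids for 5 of 7, at a summed 28.1 to 39.7 CPM against 8 to 15 CPM in Ago413-/- cells. Erythrocyte markers were called higher in round spermatids for 3 of 3 tested in Ago413-/- cells, at a summed 5.13 to 8.55 CPM against 1.05 to 2.47 CPM, and for 2 of 3 in Ago413+/- cells. Of 5 markers each, 1 of Sertoli cells and 1 of spermatogonia was called higher in Ago413-/- round spermatids, and 1 of Leydig cells was called lower in Ago413+/- round spermatids. None of the 8 lists' genes was at 0 throughout the Ago413-/- round spermatid group, and 2 of the 5 erythrocyte markers were at 0 in Ago413-/- spermatocytes. The part of elongating spermatids or other cells in the calls was not tested, and in bulk samples more cells of a type cannot be told apart from more RNA per cell.

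The Ago413+/- and Ago413-/- comparisons contrast different libraries, but both come from 1 fit of all 21 libraries. They share its scaling, filter and estimate of spread, to which the wild-type libraries also contribute, so the call lists are not independent. In that fit 21 members were called in both, all 21 in the same direction: 16 higher in round spermatids and 5 higher in spermatocytes. With the compared groups alone in the fit, fewer members were called in Ago413+/- cells, as given in the last section. With the 3 libraries that the labels call outliers added back, edgeR called 31 members in Ago413-/- and 0 in Ago413+/- cells. Over all 20542 genes tested there, 11.1% and 0% were called. In Ago413+/- cells 45 members had an unadjusted p under 0.05 and their smallest adjusted p was 0.0712, so no member was called in both. In the fit without the outlier libraries, the 21 are 42% of the calls in Ago413-/- and 80.8% of those in Ago413+/- cells. Of the 50 members called in Ago413-/- cells, 49 had the same sign in Ago413+/- cells. No like share over all genes stands beside these counts, so they are not read as particular to the members. Over the 200 members the fold changes of both genotypes had a Pearson r of 0.87, beside 0.70 over all genes, a description across genes of libraries from the same fractions. The 21 also had the same sign in wild-type cells. A call in every one of the 7 fits that left out a library, in each genotype, was kept by 11 of them, 10 higher in round spermatids and Gm26799.

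**Figure D2:**
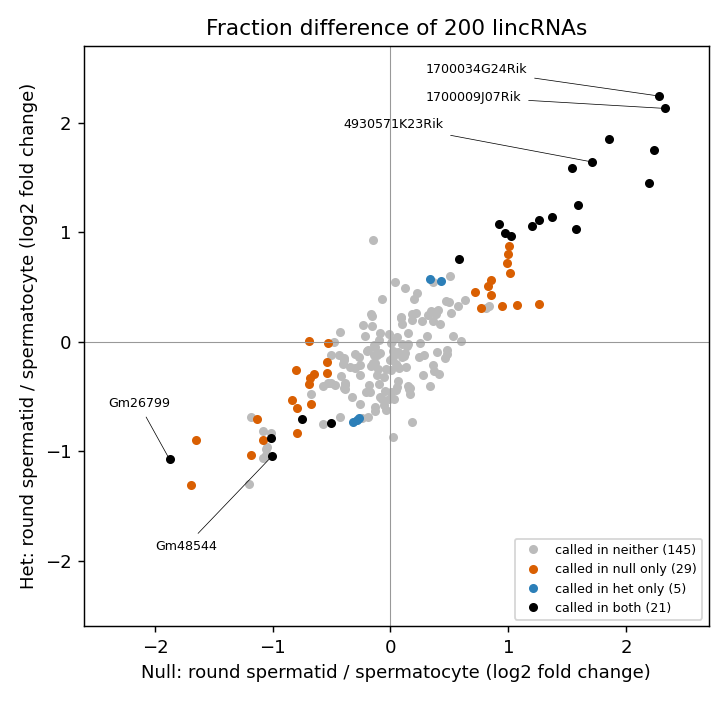
Round spermatid over spermatocyte log2 fold change in Ago413-/- (horizontal axis) and Ago413+/- cells (vertical axis), a point for each of the 200 lincRNAs. The 21 members called in both (black) lie in the upper right (16) and lower left (5), with 1700034G24Rik and 1700009J07Rik at the far upper right and Gm26799 at the far left.

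The members higher in round spermatids ranged from rare to very abundant. 1700034G24Rik, at chr5:112582936-112589996 with its start 12811 bases from that of the coding gene Sez6l, had 9.33, 9.04, 3.53 and 8.3 CPM in wild-type, 8.84, 9.17 and 3.69 CPM in Ago413+/- and 17, 8.85 and 5.8 CPM in Ago413-/- libraries of spermatocytes. Its levels in round spermatids were 30.7, 28.2 and 26.1 CPM in wild-type, 36.2, 19.3, 20.1 and 36.3 CPM in Ago413+/- and 47.7, 46.4, 38.2 and 35.5 CPM in Ago413-/- libraries. All 11 round spermatid libraries lay above all 10 spermatocyte libraries. Its log2 fold change was 2.28 ± 0.39 (SE, adjusted p = 0.000957) in Ago413-/- and 2.24 ± 0.39 (SE, adjusted p = 0.00186) in Ago413+/- cells. Its exons overlap those of Gm27004 on the other strand.

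1700009J07Rik, at chr10:77893417-77896114, had 40.6, 42.3, 17 and 32.3 CPM in wild-type, 39.1, 51.7 and 18.1 CPM in Ago413+/- and 59.6, 30.8 and 13.6 CPM in Ago413-/- libraries of spermatocytes. Its round spermatid values were 179, 114 and 90 CPM in wild-type, 202, 95.4, 85.6 and 132 CPM in Ago413+/- and 175, 159, 130.5 and 104 CPM in Ago413-/- libraries. No values overlapped between fractions. The log2 fold change was 2.33 ± 0.46 (SE, adjusted p = 0.00166) in Ago413-/- and 2.13 ± 0.46 (SE, adjusted p = 0.00494) in Ago413+/- cells.

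The most abundant of them was 4930571K23Rik, at chr7:125368861-125371013, protein-coding in RefSeq and a marker of elongating spermatids in the single-cell lists of the study. Spermatocytes held 394, 368, 226 and 401 CPM in wild-type, 470.3, 524 and 274 CPM in Ago413+/- and 635, 369.5 and 295 CPM in Ago413-/- libraries. Round spermatids held 1388, 1003 and 805 CPM in wild-type, 1481, 804, 844 and 1189 CPM in Ago413+/- and 1443, 1239, 1058 and 906 CPM in Ago413-/- libraries, again above every spermatocyte library. The log2 fold changes were 1.71 ± 0.32 (SE, adjusted p = 0.00122) and 1.64 ± 0.32 (SE, adjusted p = 0.00283) in Ago413-/- and Ago413+/- cells. 1700016P04Rik, a marker of the round spermatid cluster RS2 in those lists, had group means of 42 ± 25.6 CPM (SD, n = 3) in Ago413-/- spermatocytes and 124 ± 31.2 CPM (n = 4) in Ago413-/- round spermatids, with log2 fold changes of 1.86 ± 0.38 (SE, adjusted p = 0.00193) and 1.85 ± 0.38 (SE, adjusted p = 0.00368). Further risers were 1700084D21Rik (2.24 in Ago413-/- and 1.75 in Ago413+/- cells) and 1700095K22Rik (2.19 and 1.45). At the small end, Gm13001 was called with 0.58 ± 0.17 (SE, adjusted p = 0.0237) and 0.76 ± 0.17 (SE, adjusted p = 0.00775). These last 3 did not keep the call when a library was left out: 1700084D21Rik and 1700095K22Rik were called in 2 of 7 such fits in Ago413+/- cells (highest adjusted p = 0.0925 and 0.174), and Gm13001 in 3 of 7 in Ago413-/- cells (highest adjusted p = 0.101).

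**Figure D3:**
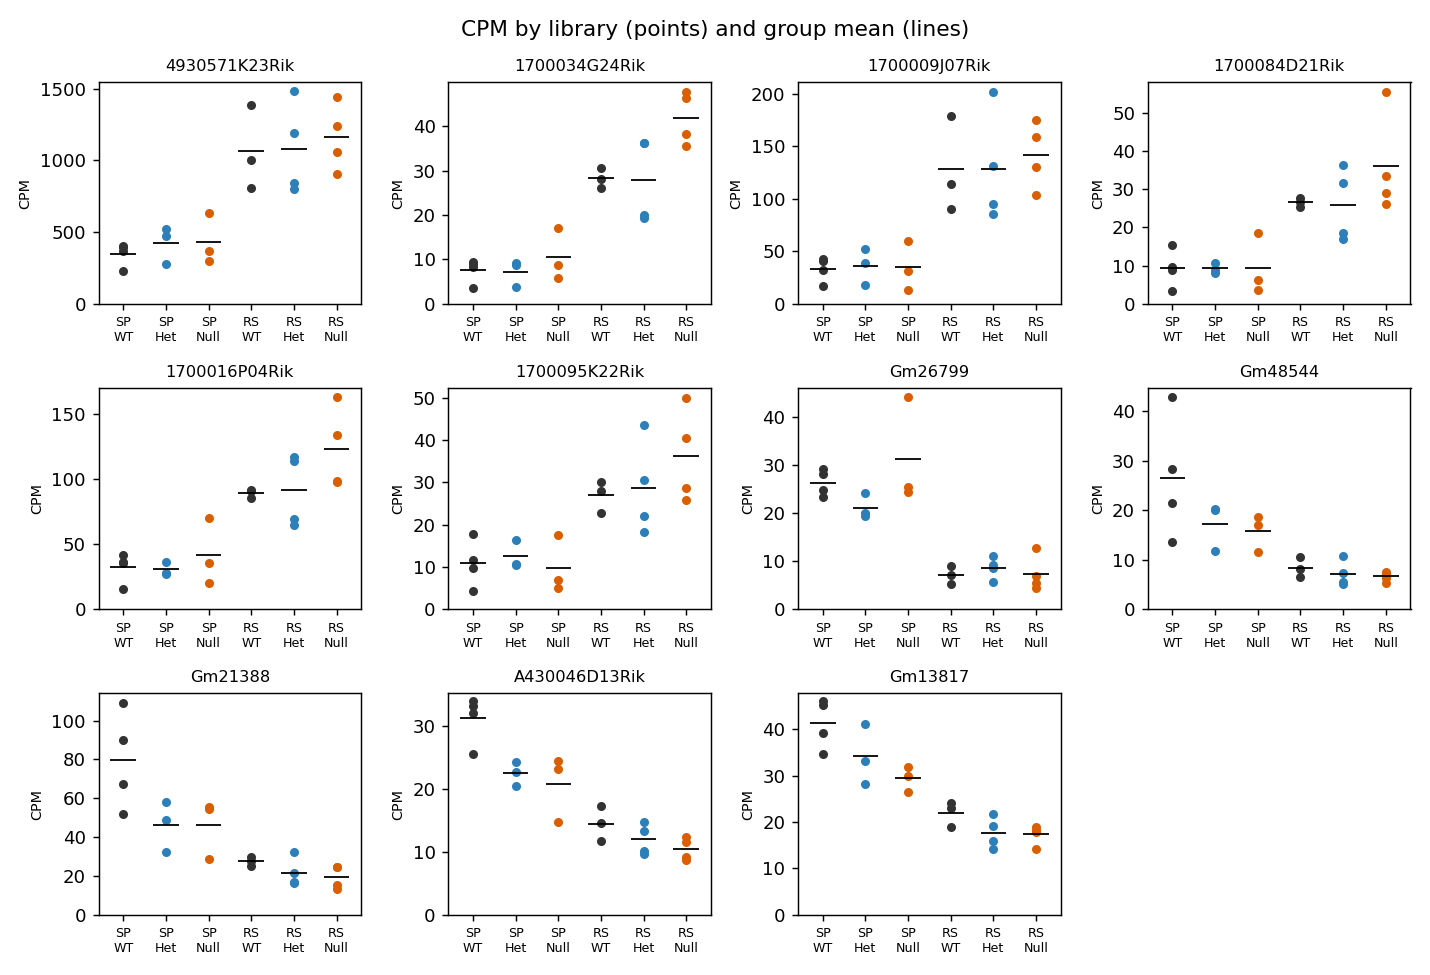
CPM (vertical axis, from 0) in each of 21 libraries (points), with group means (lines), for 6 members higher in round spermatids and 5 higher in spermatocytes in both Ago413+/- and Ago413-/- cells. For 4930571K23Rik, every round spermatid library (804 CPM or more) lies above every spermatocyte library (635 CPM or less).

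Members higher in spermatocytes were led by Gm26799, at chr6:112696777-112704668, whose start is 91 bases from that of Rad18, the gene of a ubiquitin ligase of DNA damage tolerance, on the other strand. Spermatocytes had 24.8, 23.4, 29.1 and 28.1 CPM in wild-type, 20, 24.1 and 19.4 CPM in Ago413+/- and 25.5, 24.4 and 44.1 CPM in Ago413-/- libraries. Round spermatids had 5.19, 8.93 and 7.19 CPM in wild-type, 8.49, 11, 9.22 and 5.78 CPM in Ago413+/- and 4.36, 5.39, 6.84 and 12.7 CPM in Ago413-/- libraries, below every spermatocyte library. The log2 fold change was -1.88 ± 0.26 (SE, adjusted p = 0.000957) in Ago413-/- and -1.08 ± 0.26 (SE, adjusted p = 0.00953) in Ago413+/- cells. Rad18 itself was at -0.36 in Ago413-/- cells (adjusted p = 0.0717), short of the threshold.

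Gm21388, a pachytene marker in the single-cell lists at chr3:34826669-34879283, had 89.9, 67.1, 109 and 52 CPM in wild-type, 57.9, 48.7 and 32.5 CPM in Ago413+/- and 28.6, 55.3 and 54.3 CPM in Ago413-/- libraries of spermatocytes. In round spermatids it had 29.8, 25.3 and 27.6 CPM in wild-type, 16.3, 32.3, 21.4 and 16.8 CPM in Ago413+/- and 15.5, 13.1, 24.5 and 24.7 CPM in Ago413-/- libraries. The ranges did not overlap within any genotype, although the lowest Ago413-/- spermatocyte value lay below the highest round spermatid value. Its log2 fold changes were -1.01 ± 0.26 (SE, adjusted p = 0.0103) and -0.88 ± 0.26 (SE, adjusted p = 0.0362). Gm48544, A430046D13Rik and Gm13817 were the other 3, at -1.05, -0.70 and -0.75 in Ago413+/- cells. With a library left out, the fewest of 7 fits that called a member in either genotype were 2 for Gm21388 (Ago413+/-), 2 for Gm48544 (Ago413+/-), 4 for A430046D13Rik (Ago413+/-) and 1 for Gm13817 (Ago413-/-). Exons of Gm13817 overlap those of Gm13814 on the other strand.

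Members called in Ago413-/- cells differed in annotation by direction. The 28 higher in round spermatids had a median exon length of 867.5 bases and a median of 2.5 exon blocks, the 22 higher in spermatocytes 2076 bases and 4 blocks, and the 150 not called 1420 bases and 3 blocks. Wild-type means were alike, with medians of 20.2, 20.6 and 24 CPM. These medians are a description and were not tested.

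**Figure D4:**
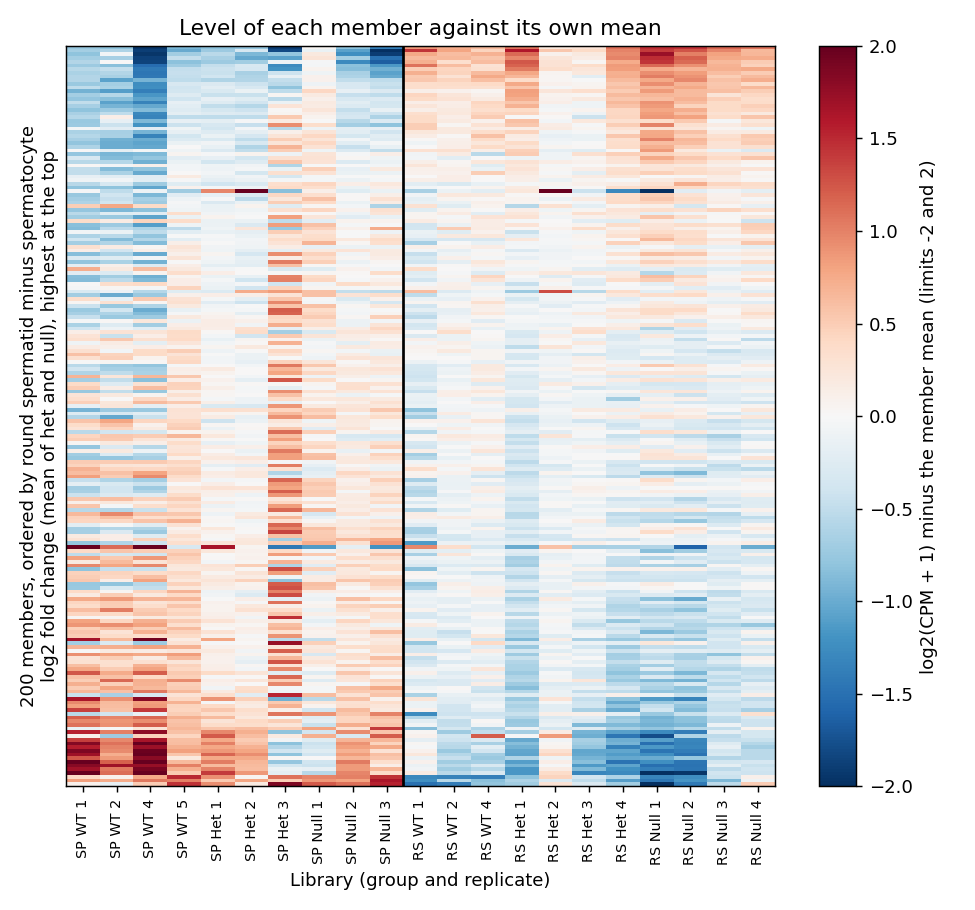
Each of the 200 lincRNAs (rows) in 21 libraries (columns, spermatocytes left of the line and round spermatids right), as log2(CPM + 1) minus the mean of that lincRNA, with colours limited to -2 and 2. Rows are ordered by fraction difference, so the top rows are low on the left and the bottom rows low on the right; the column of SP Het 3 holds the highest value of 73 members.

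A few libraries held most of the extreme values. Ago413+/- spermatocyte replicate 3 was the highest of the 21 libraries for 73 members, wild-type spermatocyte replicate 4 the highest for 31 and the lowest for 53, and Ago413-/- round spermatid replicate 1 the highest for 25 and the lowest for 19. The median coefficient of variation of the 200 was 26.3% in Ago413+/- spermatocytes, 21.4% in wild-type and 15.5% in Ago413-/- spermatocytes, and between 12.8% and 15.3% in the round spermatid groups. Over the 21 libraries the ratio of highest to lowest level had a median of 3.14, was under 3 for 90 members and over 10 for 16. Without Ago413+/- spermatocyte replicate 3 the call count in Ago413+/- cells was 23 (19 higher, 4 lower). Without Ago413-/- spermatocyte replicate 3 it was 16 in Ago413-/- cells, without replicate 2 it was 21, and without Ago413-/- round spermatid replicate 1 and replicate 2 it was 30 and 33. Without Ago413+/- round spermatid replicate 1 or replicate 4 the count in Ago413+/- cells was 15, and without replicate 2 it was 40. These counts stand without the shares of all genes called in the same fits, so they are not read as particular to the members.

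Of the 200, 14 are in the marker lists that the study drew from wild-type single cells of the testis, with clusters named for the stages of spermatogenesis. The 3 pachytene markers Gm21269, Gm21388 and Gm14152 had log2 fold changes from -1.06 to -0.53 in Ago413-/- cells and 2 of them were called higher in spermatocytes.

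Starts shared with coding genes were compared next. Of 23 members with a divergent coding start, 22 had a tested partner. The fraction differences of member and partner had the same sign for 12 of 22 in Ago413-/- and 15 of 22 in Ago413+/- cells, with a Pearson r of 0.38 and 0.47 across pairs, which share their libraries. For members without one, the nearest coding gene by start had the same sign for 72 of 146 in Ago413-/- cells (r = -0.0003). C030037D09Rik starts 132 bases from Msi2, the gene of an RNA-binding protein, on the other strand. Its spermatocyte values were 54.7, 52.6, 44.8 and 71.7 CPM in wild-type, 83.9, 79.9 and 64.5 CPM in Ago413+/- and 101, 75.2 and 78.2 CPM in Ago413-/- libraries. Its round spermatid values were 124, 116 and 107 CPM in wild-type, 157, 100.1, 109 and 138 CPM in Ago413+/- and 144, 153, 133 and 121 CPM in Ago413-/- libraries. It was higher in round spermatids by 0.98 ± 0.21 (SE, adjusted p = 0.00251) in Ago413-/- and 0.99 ± 0.21 (SE, adjusted p = 0.00398) in Ago413+/- cells, while Msi2 rose by 0.69 in Ago413-/- cells (adjusted p = 0.0171) and stood at 0.50 in Ago413+/- cells (adjusted p = 0.11), where it was not called. Gm11608, divergent from the imprinted gene Zdbf2, had 1.26 beside 0.64 for Zdbf2 in Ago413-/- cells. Others parted from the partner in Ago413-/- cells: A430046D13Rik was at -0.75 while Myl6b, a myosin light chain gene, was at 0.86 (adjusted p = 0.00478), and 4933433G15Rik was at -0.40 while the kinase gene Mapk6 was at 1.24 (adjusted p = 0.00148). In Ago413+/- cells Zdbf2 was at 0.55 (adjusted p = 0.0723) and Myl6b at 0.55 (adjusted p = 0.0846), neither of them called, and Mapk6 was at 1.26 (adjusted p = 0.00251).

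Members that lie close together were few: 8 pairs were within 50000 bases, 6 of them with the same sign in Ago413-/- cells. Gm6567 and 4933435G04Rik on chromosome 7 were both lower in round spermatids, at -1.08 and -1.04, with adjusted p = 0.0607 and 0.0645. 4930571K23Rik and 4933440M02Rik, also on chromosome 7, were at 1.71 and -0.15.

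The second comparison asked whether loss of the remaining allele changed the members, Ago413-/- against Ago413+/- in each fraction, with libraries the rule did not use. In spermatocytes 0 of 200 members were called by edgeR and 0 by DESeq2, with 6 at an unadjusted p under 0.05 (3%, against 3.74% of all genes), while 0.00514% and 0.0206% of all tested genes were called by the 2 tools. In round spermatids 0 members were called by either tool, with 20 at an unadjusted p under 0.05 (10%, against 7.67% of all genes), and the tools called 0.00518% and 0.104% of all genes. The quartiles of the log2 fold changes were -0.22 and 0.10 in spermatocytes and -0.13 and 0.19 in round spermatids. Lowest p in spermatocytes were those of Gm14152, Gm26917 and Gm48051, and in round spermatids those of 4930455J16Rik, 1700101O22Rik and 1700061N14Rik. Gm14152 had 21.8, 23.9 and 25.8 CPM in Ago413-/- and 14.4, 17.2 and 8.77 CPM in Ago413+/- spermatocytes, groups that did not overlap, with a log2 fold change of 0.81 ± 0.22 (SE, adjusted p = 0.974). 4930455J16Rik had 21.9, 24.3, 31.5 and 31.9 CPM in Ago413-/- and 34, 41.3, 39.8 and 35.1 CPM in Ago413+/- round spermatids, also without overlap, with -0.47 ± 0.12 (SE, adjusted p = 0.631). Of all tested genes, 9.16% in spermatocytes and 3.47% in round spermatids had no overlap between these genotypes, in either direction.

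The third comparison set each genotype against wild-type. Here the wild-type libraries chose the members, so the counts are read only beside the background. In spermatocytes, Ago413-/- against wild-type gave 0 members called by edgeR, with 79 at an unadjusted p under 0.05 (39.5%, against 30.4% of all genes) and a smallest adjusted p of 0.0599, and 38 by DESeq2 (20 higher, 18 lower). Over all genes the tools called 0.0411% and 15.6%. Leaving out wild-type spermatocyte replicate 5 gave 65 members by edgeR, 41 higher and 24 lower, and 23.6% of all genes. In round spermatids, Ago413-/- against wild-type gave 0 members by edgeR, 66 at an unadjusted p under 0.05 (33%, against 19.3% of all genes) and a smallest adjusted p of 0.0658, and 14 by DESeq2. The tools called 0.0518% and 3.64% of all genes there. Ago413+/- against wild-type gave 0 in spermatocytes by edgeR, with 86 at an unadjusted p under 0.05 (43%, against 24.6% of all genes), and 21 by DESeq2, while 0.0257% and 6.31% of all genes were called. Without wild-type spermatocyte replicate 5 edgeR called 59 members and 15.5% of all genes, and without Ago413+/- spermatocyte replicate 3 it called 1. In round spermatids Ago413+/- against wild-type gave 0 by both tools, with 23 at an unadjusted p under 0.05 (11.5%, against 8.88% of all genes), while 0.0207% and 0.0363% of all genes were called. The median log2 fold change of the 200 in Ago413-/- against wild-type spermatocytes was 0.05. For 200 lincRNAs chosen instead on Ago413+/- and Ago413-/- libraries, 169 of them shared, it was 0.40.

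The members with the lowest p in these comparisons are described with their values. Over all tested genes, Ago413-/- and wild-type libraries did not overlap, in either direction, for 27.8% in spermatocytes and 20.9% in round spermatids. A lack of overlap below is to be read beside those shares. Mir670hg, host of miR-129-2 and miR-670 at chr2:94160636-94264918, had 19.6, 23.2, 17.5 and 24.5 CPM in wild-type, 21.9, 23.5 and 37 CPM in Ago413+/- and 39.7, 32.1 and 34 CPM in Ago413-/- libraries of spermatocytes. In round spermatids it had 25.1, 23.4 and 26.2 CPM in wild-type, 28.3, 30.4, 31.5 and 32.4 CPM in Ago413+/- and 36.1, 49, 39.6 and 37.9 CPM in Ago413-/- libraries. The Ago413-/- libraries lay above all wild-type libraries in both fractions, and in round spermatids the Ago413+/- libraries lay between the others without overlap. The log2 fold change against wild-type was 0.71 ± 0.24 (SE, adjusted p = 0.0824) in spermatocytes and 0.73 ± 0.14 (SE, adjusted p = 0.0658) in round spermatids, outside the threshold in both.

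1700086P04Rik, at chr4:129050097-129057983, is divergent from the ubiquitin ligase gene Rnf19b and lies 2.58 Mb from Ago1. Spermatocytes had 23.1, 16.3, 20 and 26.3 CPM in wild-type, 29.4, 29.3 and 39.8 CPM in Ago413+/- and 40.2, 35.7 and 40.1 CPM in Ago413-/- libraries. Round spermatids had 24.2, 24.2 and 24 CPM in wild-type, 36, 30.1, 31.4 and 30.7 CPM in Ago413+/- and 48.6, 41.2, 37 and 37.4 CPM in Ago413-/- libraries. Ago413-/- values were above all wild-type values in both fractions, with log2 fold changes of 0.83 ± 0.21 (SE, adjusted p = 0.0599) and 0.79 ± 0.15 (SE, adjusted p = 0.0667). It and 1700029M20Rik (9.16 Mb away) are the 2 members within 10 Mb of Ago1, and an effect of DNA of 129 origin that may still flank the deletion cannot be told apart from one of the deletion.

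Gm48051, at chr13:49970001-49974260, had 31.4, 40.2, 38.3 and 40.3 CPM in wild-type, 54.9, 69.4 and 34.5 CPM in Ago413+/- and 81.1, 62.8 and 98.3 CPM in Ago413-/- libraries of spermatocytes. Ago413-/- libraries lay above wild-type ones, and the Ago413+/- libraries spanned both. The log2 fold change was 1.08 ± 0.21 (SE, adjusted p = 0.0599) in spermatocytes and 0.13 ± 0.17 (SE, adjusted p = 0.708) in round spermatids. Gm17315, which overlaps exons of Cdc42ep3 on the other strand, lay the opposite way, with 24.4, 22.2, 23 and 13.4 CPM in wild-type, 10.1, 10.2 and 4.6 CPM in Ago413+/- and 4.36, 12 and 6.85 CPM in Ago413-/- libraries of spermatocytes and -1.43 ± 0.36 (SE, adjusted p = 0.0599). AC142100.1 had 29.9, 31.1 and 29.7 CPM in wild-type and 19.3, 21, 19.3 and 18.8 CPM in Ago413-/- round spermatids, with -0.60 ± 0.13 (SE, adjusted p = 0.0707).

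**Figure D5:**
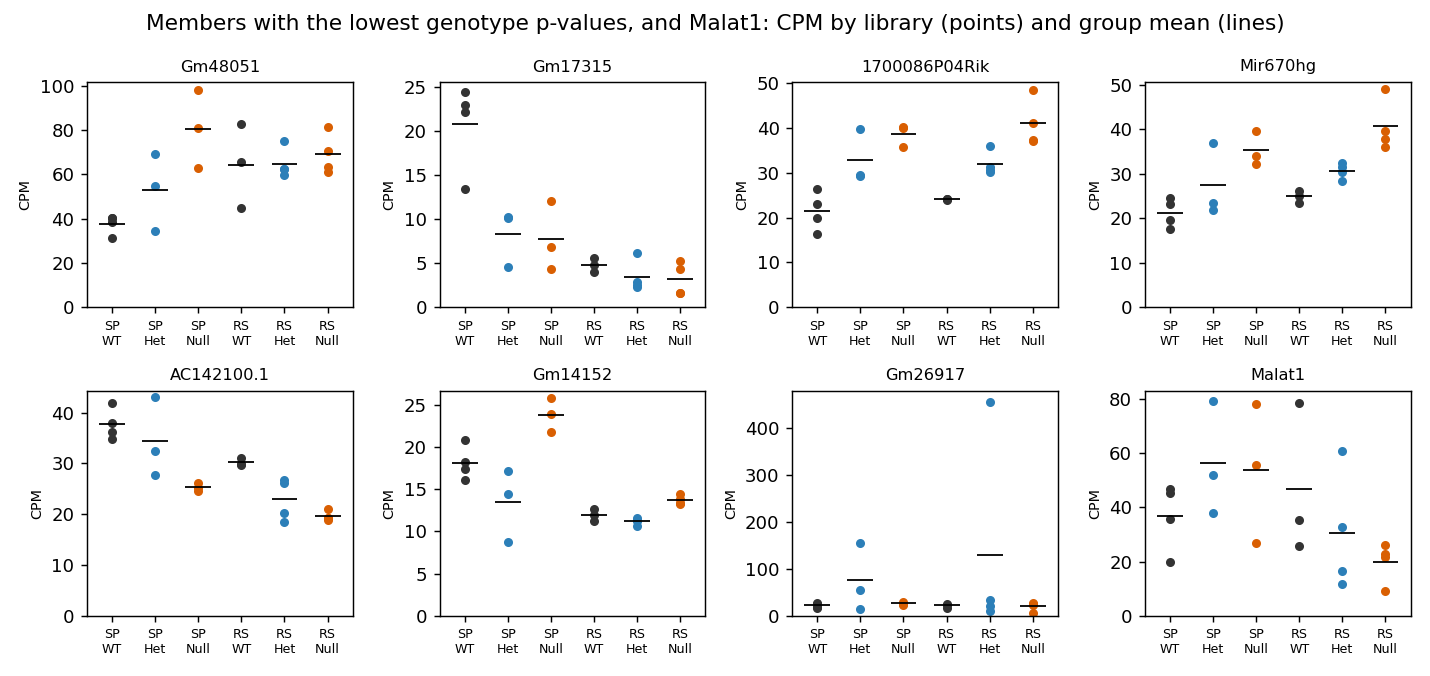
CPM (vertical axis, from 0) in each of 21 libraries (points), with group means (lines), for 7 members with the lowest p-values between genotypes and for Malat1. For Mir670hg the Ago413-/- libraries (32.1 CPM or more) lie above the wild-type libraries (26.2 CPM or less) in both fractions, while Gm26917 has a few Ago413+/- libraries far above the rest.

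Other miRNA hosts did not share one direction. Mirg, at chr12:109729764-109749460, had 19.4, 15.9, 15.8 and 16.1 CPM in wild-type, 11.4, 12.8 and 14.6 CPM in Ago413+/- and 9.41, 12.8 and 10.6 CPM in Ago413-/- libraries of spermatocytes. Round spermatids showed 15, 11.3 and 14.1 CPM in wild-type, 9.58, 9.48, 10.5 and 9.04 CPM in Ago413+/- and 9.15, 8.28, 8.23 and 7.67 CPM in Ago413-/- libraries. Wild-type libraries lay above Ago413-/- libraries in both fractions, with log2 fold changes of -0.64 ± 0.22 (SE, adjusted p = 0.0834) and -0.67 ± 0.16 (SE, adjusted p = 0.0788), short of the threshold. Gm49794 was the most uneven host: wild-type spermatocytes had 85.6, 28.6, 113 and 9.88 CPM and Ago413-/- spermatocytes 5.2, 10.9 and 4.84 CPM, which overlapped at the lowest wild-type library, with -3.08 ± 0.82 (SE, adjusted p = 0.0609). Gm21269 had 178, 89.9, 220.3 and 79.4 CPM in wild-type and 41.2, 97 and 82.3 CPM in Ago413-/- spermatocytes, also overlapping. GENCODE places small RNA genes without a RefSeq mature sequence in Smkr-ps, 1700001G01Rik, 6030443J06Rik and 4930448C13Rik, whose log2 fold changes against wild-type in Ago413-/- spermatocytes were 0.57, 0.01, -0.27 and 0.57. None was called.

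Few of the 200 are lincRNAs with a known role. Of 39 names searched, 4 were members. Malat1, a nuclear RNA of speckles, had 35.8, 20, 46.6 and 45.2 CPM in wild-type, 79.4, 51.9 and 37.9 CPM in Ago413+/- and 55.6, 27 and 78.3 CPM in Ago413-/- libraries of spermatocytes. In round spermatids it had 35.5, 25.6 and 78.7 CPM in wild-type, 32.7, 60.9, 16.5 and 11.7 CPM in Ago413+/- and 9.07, 21.7, 22.9 and 26 CPM in Ago413-/- libraries. Values varied widely within groups, and the log2 fold change between fractions was -1.19 ± 0.46 (SE, adjusted p = 0.075) in Ago413-/- cells. 2900097C17Rik, the mouse Norad that binds Pumilio proteins, had 67, 58.9, 66.7 and 39.7 CPM in wild-type spermatocytes and 26.8, 27.8 and 27.3 CPM in wild-type round spermatids. In Ago413-/- cells its difference was -0.35 ± 0.22 (SE, adjusted p = 0.298). 1700020I14Rik, which RefSeq names Oip5os1, was even across groups, with means from 33.4 CPM to 42.9 CPM.

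Whether a genotype effect differed between fractions was tested as an interaction, for Ago413-/- against Ago413+/- and against wild-type. The latter uses the wild-type libraries that chose the members. In both, 0 members were called by edgeR and by DESeq2, with 4 at an unadjusted p under 0.05 in each (2% of members, against 4.71% and 5.95% of all genes), and 0% of all 20404 genes were called. These tests do not show that the effects were equal.

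Factors that act on such transcripts were looked at as lists. Of 15 tested genes of nuclear RNA surveillance, 1 was called higher and 1 lower in round spermatids in Ago413-/- cells: Pabpn1, the nuclear poly(A)-binding protein gene, at 0.72, and Zfc3h1, a subunit of the connection between poly(A) tails and the exosome, at -0.90. The median of the list was -0.01, beside 0.00 over all genes. In Ago413+/- cells, too, 1 gene of that list was called in each direction. Of 5 paraspeckle protein genes none was called in Ago413-/- or Ago413+/- cells, and Pspc1 was lower in round spermatids in wild-type cells, at -1.40 (adjusted p = 0.00118). Of 5 germ cell regulators, Mybl1 was lower in Ago413-/- round spermatids at -0.78 (adjusted p = 0.0422) and stood at -0.38 in Ago413+/- cells (adjusted p = 0.424). Sox30 was called higher in Ago413+/- round spermatids at 0.68 (adjusted p = 0.00363) and had 0.46 in Ago413-/- cells (adjusted p = 0.0259), under the fold threshold. None of the 3 lists had a gene called between genotypes by edgeR, whose median over the surveillance list was -0.14 for Ago413-/- against wild-type spermatocytes.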

How the data were processed

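Poly(A) RNA of 24 libraries was sequenced as strand-specific paired reads. Per the labels and the methods of the study, the authors trimmed reads with Trim Galore, aligned them to mm10 with STAR and deposited raw counts per gene from its gene counting, which keeps uniquely placed reads only; the annotation release and strand column are not given in the sources used here. All 55536 identifiers matched GENCODE M21. Groups came from the labels. The members and gene lists were chosen with earlier results of these data known.

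A gene entered a fit when 3 or more libraries held 10 or more counts of it. Counts were TMM-scaled and fitted in edgeR 4.0.16 under R 4.3.3, with its quasi-likelihood F test. Fraction differences and interactions came from 1 fit of all 21 libraries in 6 groups, and genotype differences from 1 fit per fraction. Genes were called at a Benjamini-Hochberg adjusted p under 0.05 with an absolute log2 fold change above 0.5. The SE is the log2 fold change divided by the square root of the F statistic. DESeq2 1.42.0 was an alternative. Both were tested on simulated data. P-values measure the spread between pooled preparations, and floors of 3 counts cover counting error only.

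Named members were the 10 most abundant, up to 6 in each direction called between fractions in both genotypes and the 3 smallest such, the 3 lowest p in each genotype comparison with Ago413-/-, hosts of small RNAs, known lincRNAs, single-cell markers, 6 with divergent coding genes, and those at the threshold; Gm11608, 4933440M02Rik, Gm6567 and 4933435G04Rik were named after their values were seen. Replicate numbers did not pair the libraries: the deviations of same-numbered libraries correlated above 0.1 in 4 of 9 pairs across fractions. Libraries with consecutive numbers in their names, 1 of each fraction, did so in 8 of 9 pairs (-0.14 to 0.307), and that pairing was an alternative. The result for 1 of the single-cell marker clusters is not reported here.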

Additional observations from a re-analysis of the deposited data

Results flagged for a closer look

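Among 59 named members, 177 groups of 4 libraries were screened for a library whose gap to the nearest other exceeded 0.829 of the range, and 18 were flagged; chance flags about 1 in 20 groups.

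Wild-type spermatocyte replicate 5 was flagged for 8 members. It was the lowest for Gm2762, at 458 CPM against 485 to 490 in the other 3 libraries. It was the highest for 4930449C09Rik (337 CPM, others 254 to 265), 1700001G01Rik (36.9 CPM, others 27.4 to 28.1), 1700092E19Rik (20.8 CPM, others 10.2 to 12), Gm20268 (59.3 CPM, others 24 to 28.6), 4933416O17Rik (39 CPM, others 20.7 to 22.4), 4930557F10Rik (25.1 CPM, others 14.7 to 16.1) and 4932412D23Rik (49.7 CPM, others 35.2 to 37.3). This is the library whose removal gave 65 members called by edgeR between Ago413-/- and wild-type spermatocytes. Mirg was highest in wild-type spermatocyte replicate 1, at 19.4 CPM.

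Ago413+/- round spermatid replicate 2 was flagged for 4 members, the highest for each: Gm26917 at 456 CPM (others 10.8 to 32.8), Gm21269 at 72.7 CPM (24.4 to 26.1), Gm49794 at 19.4 CPM (5.83 to 7.67) and Gm17315 at 6.1 CPM (2.28 to 2.81). In the same group 1700001G01Rik was highest in replicate 3, at 29.2 CPM, and 4930547H16Rik was lowest in replicate 1, at 25.1 CPM. In Ago413-/- round spermatids, Gm26917 was lowest in replicate 1, at 6.24 CPM, and replicate 3 was lowest for 4933416O17Rik, at 36 CPM, and for 1700018A04Rik, at 31.5 CPM.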

How the results depend on the processing

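Of 78 recomputed counts of called members that left out no replicate, 61 stayed within 1.5 times the main count. The fraction difference in Ago413-/- cells (50 members) fell to 31 with the 3 outlier libraries added back (11.1% of all genes called). In Ago413+/- cells (26 members) it was 0 with those libraries (0% of all genes) and 45 with no filter on low counts (5.83%). It was 49 with library totals unscaled (13.7%, an alternative chosen after seeing the data), 9 with the compared groups alone and 15 with the replicate block. The replicate block gave 63 in Ago413-/- cells. Pairing libraries of consecutive numbers as a block instead gave 49 in Ago413-/- and 20 in Ago413+/- cells, 42 and 17 of them called without it. Genotype counts, all 0 in edgeR, rose for Ago413-/- against wild-type spermatocytes to 38 with DESeq2 (15.6% of all genes) and 49 with no filter (7.61%). They were 17 with the compared groups alone and 4 with the replicate block. In round spermatids that comparison gave 14 with DESeq2 (3.64% of all genes), 6 with no filter (0.7%) and 1 with the outlier libraries (0.134%). Ago413+/- against wild-type spermatocytes gave 21 with DESeq2 (6.31% of all genes) and 46 with no filter. Ago413-/- against Ago413+/- gave 2 in spermatocytes (0.0871% of all genes) and 1 in round spermatids (0.0323%) with no filter. The cause was not tested. Leaving out each replicate gave 16 to 67 members in Ago413-/- and 15 to 40 in Ago413+/- cells between fractions. It gave 0 to 65 for Ago413-/- and 0 to 59 for Ago413+/- against wild-type spermatocytes, and 0 for the other genotype comparisons and interactions. A count given here without the share of all genes called is not read as particular to the members.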
